A study of Mus musculus with 2 samples.

Results

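The insulin-like growth factor (IGF) axis was examined in the RNA of primary mouse fibro-adipogenic progenitors (FAPs), the mesenchymal cells of skeletal muscle that can become adipocytes. Its 10 genes were picked by name from the 26082 genes in both libraries. They are the ligands Igf1 and Igf2, the receptors Igf1r and Igf2r, and the binding proteins Igfbp2, Igfbp3, Igfbp4, Igfbp5, Igfbp6 and Igfbp7. The choice was made with ratios of these libraries known, that of Igfbp6 among them, so the values are a description of these libraries and no test is given. The cells had the genotype WT, and the mice that the study purchased were C57BL/6 and a few weeks old. A first culture received plasmids overexpressing TGFBR3 and the other the empty vector, the control. Both were under adipogenic differentiation in DMEM with 20% FBS that held insulin at 10 μg/ml, IBMX at 0.5 mM and dexamethasone at 0.25 μM, and no sampling time is given. Each condition has 1 library, from cells whose number of donor animals is not stated. No difference therefore has a replicate check, no p-value is given, and every interval covers counting error only.

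IGF1 and IGF2 are small secreted growth factors that signal through the tyrosine kinase receptor IGF1R. IGF2R, also the cation-independent mannose 6-phosphate receptor, takes IGF2 up for breakdown in lysosomes. The binding proteins IGFBP2 to IGFBP6 hold IGFs with high affinity outside the cell and so limit or deliver them, and IGFBP6 favors IGF2 over IGF1. IGFBP7 is a related secreted protein with low affinity for IGFs. In muscle, IGF1 is known for driving the growth of myofibers and the proliferation of muscle stem cells, and FAPs are among its sources.

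Levels were the authors' FPKM, fragments scaled by transcript length and library total, and were compared as log2 ratios after adding 1 to each FPKM, with the library labelled control as the denominator. A gene was called at −1 or less or at 1 or more, which is 2-fold. Total counts were 62321027 (labelled TGFBR3 OE) and 83779203 (labelled control). Tgfbr3, the transfected gene, stood at FPKM 36.9 and 35.1, with a log2 ratio of 0.07 (exact 95% interval 0.04 to 0.10), so its counted level was not raised. The labels do not say from which species the plasmid's cDNA came, and whether its transcripts would be counted under Tgfbr3 was not tested. Each library is therefore called by its label, which also sets every direction given. The median log2 ratio was 0.13 for the 10626 genes that reached FPKM 1 in each library, and centred values have this shift removed. Ratios also moved with base composition. When genes were put into 20 bins by GC content, the median ratio was 0.42 in the AT-richest bin and −0.26 in the GC-richest. Of the FAP markers, Pdgfra had FPKM values of 30.5 and 32.6 and Ly6a of 1013 and 706, while Dpp4 and Pi16 were below 0.1 in both libraries. Of the 5 hematopoietic markers, 3 had no count in either library and the highest FPKM was 0.13. The 5 endothelial markers summed to FPKM values of 1.13 and 0.94. Of the muscle markers, 3 were analysed and summed to 1.16 and 0.81.

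Promoter windows of 300 bases, from 250 before to 50 after the RefSeq start on GRCm38.p6, were found for all 10 genes. Those of Igfbp6, Igfbp2 and Igfbp3 are shown because Igfbp6 and Igfbp2 had the lowest ratios of the axis and Igfbp3 the highest. Capitals mark matches on either strand to 6 motifs, none of which holds another. They are the core promoter motif TATAAA, the GC box GGGCGG, the motif CCAAT bound by NF-Y, the E-box CACGTG, the SMAD palindrome GTCTAGAC and the AP-1 site TGACTCA.
Igfbp6, chr15:102143936-102144235, plus strand: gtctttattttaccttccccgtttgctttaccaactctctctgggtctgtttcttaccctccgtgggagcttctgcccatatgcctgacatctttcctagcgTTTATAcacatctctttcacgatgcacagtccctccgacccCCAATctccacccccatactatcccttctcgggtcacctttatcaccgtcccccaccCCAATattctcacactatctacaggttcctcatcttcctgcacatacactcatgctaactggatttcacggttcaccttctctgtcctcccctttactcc
Igfbp2, chr1:72824230-72824529, plus strand: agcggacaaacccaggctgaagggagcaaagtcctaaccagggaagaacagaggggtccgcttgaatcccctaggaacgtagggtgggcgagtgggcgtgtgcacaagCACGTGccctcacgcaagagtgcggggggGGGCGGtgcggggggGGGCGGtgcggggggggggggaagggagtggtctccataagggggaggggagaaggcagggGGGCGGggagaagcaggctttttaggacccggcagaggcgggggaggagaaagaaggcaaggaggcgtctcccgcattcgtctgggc
Igfbp3, chr11:7213874-7214173, minus strand: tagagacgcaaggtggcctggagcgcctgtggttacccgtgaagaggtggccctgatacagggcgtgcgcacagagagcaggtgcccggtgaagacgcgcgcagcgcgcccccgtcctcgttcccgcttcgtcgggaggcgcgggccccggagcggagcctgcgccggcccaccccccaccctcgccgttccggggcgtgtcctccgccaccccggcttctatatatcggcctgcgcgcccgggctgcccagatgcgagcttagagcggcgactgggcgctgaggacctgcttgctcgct
The windows differ in composition. That of Igfbp6 had a GC content of 49.7% and 8 CpG, against 67.0% and 18 for Igfbp2, 71.7% and 37 for Igfbp3, and a median of 52.7% and 7 over 32851 windows of all genes. The Igfbp6 window held CCAAT at 107 and at 50 bases before the start, which 37.4% of all windows hold at least once, and the core promoter motif on the reverse strand at 148 (13.6%). The Igfbp2 window held 3 GC boxes, at 113, 98 and 37 bases before the start (35.7%), and an E-box at 142 (7.15%). A later Igfbp2 start had a window of its own, chr1:72825137-72825436, with a GC content of 57.3%, 14 CpG, an AP-1 site at 39 bases before the start (5.2%) and no other match. The Igfbp3 window held none of the 6. The SMAD palindrome, present in 0.213% of all windows, was in none of the 14 windows of the axis, and these matches are letters and not known sites. The start that RefSeq gives for Igfbp6 lies 176 bases before the gene start of GENCODE M21, so its window ends before that gene start. The windows shown for Igfbp2 and Igfbp3 hold the GENCODE gene start. The windows are thus not placed alike, which limits the comparison of their composition.

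Of the 10 genes, 1 was at least 2-fold lower in the library labelled TGFBR3 OE, where 0.475% of all genes were, and none was 2-fold higher, where 1.41% were. A mean FPKM of 1 or more was reached by 8 of the 10 (not by Igf2 and Igfbp5) and by 11213 genes in all, of which 1.03% were 2-fold lower and 3.14% 2-fold higher. Of these 8, 7 had a ratio below 0, against 36.7% of the 11213, and their median log2 ratio was −0.39 against 0.14. The 4 lowest ratios were those of Igfbp6, Igfbp2, Igfbp7 and Igfbp4, and the ligands and receptors lay between −0.33 and −0.06. The order below Igfbp6 and Igfbp2 changed with the scale. Igf2 was at −0.74 without the added 1, Igf1 at −0.55 after removal of the GC trend and Igf2r at −0.59 after removal of the length trend. Each was lower than both Igfbp7 and Igfbp4 on the same scale. Because the libraries are of bulk RNA, fewer cells of a type and less RNA per cell cannot be told apart. The plot of levels shows each gene in both libraries.

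**Figure D1:**
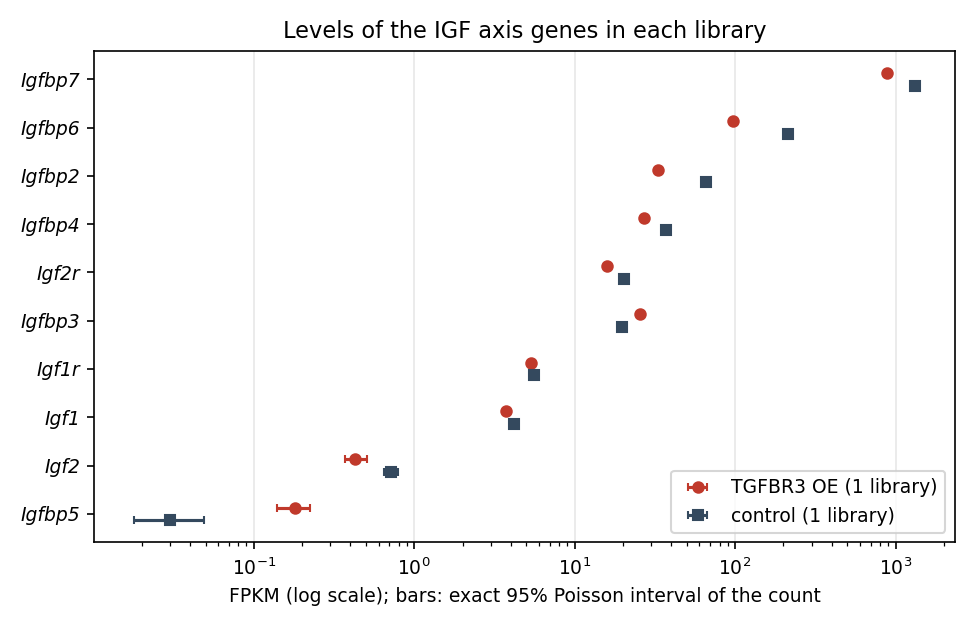
FPKM on a log scale of the 10 IGF axis genes in the library labelled TGFBR3 OE (circles) and in the library labelled control (squares), 1 library each, with exact 95% Poisson intervals of the counts. Igfbp7 stands highest at 882 and 1329, and Igfbp5 is at 0.18 and 0.03.

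Igfbp6, on chromosome 15 of mm10 from 102144362 to 102149511 with 4 exon blocks, was the one gene past the threshold. It stood at FPKM 97.3 in the library labelled TGFBR3 OE and at 213 in the library labelled control, from 7338 and 21834 counts. It fell 2.18-fold, with a log2 ratio of −1.12 (95% interval −1.16 to −1.08). Of the 11213 genes at that mean level, 77 had ratios below that of Igfbp6. It ranked 208th of all genes by FPKM in the library labelled control and 493rd in the other. Its longest transcript has a GC content of 60.7%, which is in the highest bin. After removal of the GC trend the log2 ratio of Igfbp6 was −0.86, short of 2-fold. Spryd3, at 8127 bases before Igfbp6, did not show a ratio as low, at FPKM 14.5 and 19.7 (log2 ratio −0.42). Soat2, which starts 1014 bases after Igfbp6, had 20 and 32 counts, at FPKM 0.13 and 0.16. At such levels the added 1 does not allow a ratio that low, so Soat2 cannot be compared.

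Igfbp2, on chromosome 1 from 72824503 to 72852474, lay just outside the threshold. Its FPKM was 33.0 against 66.0, from 4138 and 11262 counts, and the log2 ratio was −0.98 (95% interval −1.03 to −0.93), an interval that holds the threshold itself. Centred, it was past 2-fold at −1.10, and after removal of the GC trend it was −0.71. Its longest transcript has the highest GC content of the axis, at 62.1%. The proportion of Igfbp6 to Igfbp2 differed little, with 2.95 Igfbp6 FPKM per Igfbp2 FPKM in the library labelled TGFBR3 OE and 3.22 in the library labelled control. That is a 1.09-fold difference (95% Woolf interval of the counts 1.05 to 1.14), small but beyond counting error.

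Igfbp7, on chromosome 5 from 77349240 to 77408041, was by far the most abundant transcript of the axis. It stood at FPKM 882 in the library labelled TGFBR3 OE, 23rd of all genes, and at 1329 in the library labelled control, 16th of all. The log2 ratio was −0.59 (95% interval −0.60 to −0.58), from 72308 and 148416 counts, which is 1.51-fold lower and under the threshold. Of its exon length, 7.03% overlaps Polr2b on the other strand, a gene at 5148 and 5097 counts. These counts are not scaled to the library totals, which differ. Igfbp4, on chromosome 11 from 99041244 to 99054392, stood at FPKM 26.9 and 37.3 from 8071 and 15198 counts. Its log2 ratio was −0.45 (95% interval −0.49 to −0.42). IGFBP4 is known as the main substrate of the protease PAPP-A, which frees IGF from it.

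Igfbp3 was the one binding protein above FPKM 1 with a higher level in the library labelled TGFBR3 OE. It lies on chromosome 11 from 7206086 to 7213923 and encodes the main IGF carrier of the circulation. Its FPKM was 25.7 against 19.7, from 5452 and 5709 counts, and the log2 ratio was 0.36 (95% interval 0.31 to 0.41), which is 1.30-fold and under the threshold. The value was 0.24 when centred and 0.32 after removal of the GC trend. Set against Igfbp3 in the same library, Igfbp6 stood at 3.79 FPKM per Igfbp3 FPKM in the library labelled TGFBR3 OE and at 10.8 in the library labelled control, a 2.84-fold difference (95% Woolf interval of the counts 2.71 to 2.97). The same comparison of Igfbp2 with Igfbp3 gave 1.29 and 3.34. Such proportions do not depend on a library's total, but they still hold the trend over GC content. After its removal the log2 ratios were −0.86 for Igfbp6, −0.71 for Igfbp2 and 0.32 for Igfbp3.

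Igfbp5, which encodes the most conserved of the binding proteins, was scarce. It had 73 counts in the library labelled TGFBR3 OE and 17 in the library labelled control, at FPKM values of 0.18 and 0.03. The log2 ratio of (FPKM + 1) was 0.20, since the added 1 hides changes at such levels. As CPM (counts scaled to a common library total) without an added 1, it was 5.77-fold higher (exact 95% interval 3.37 to 10.4). Igfbp5 lies on chromosome 1 from 72857932 to 72874884, on the strand opposite to Igfbp2 and with 5457 bases between the ends of the genes, so that these neighbors had ratios of opposite sign, except after removal of the length trend, when Igfbp5 was at −0.01.

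**Figure D2:**
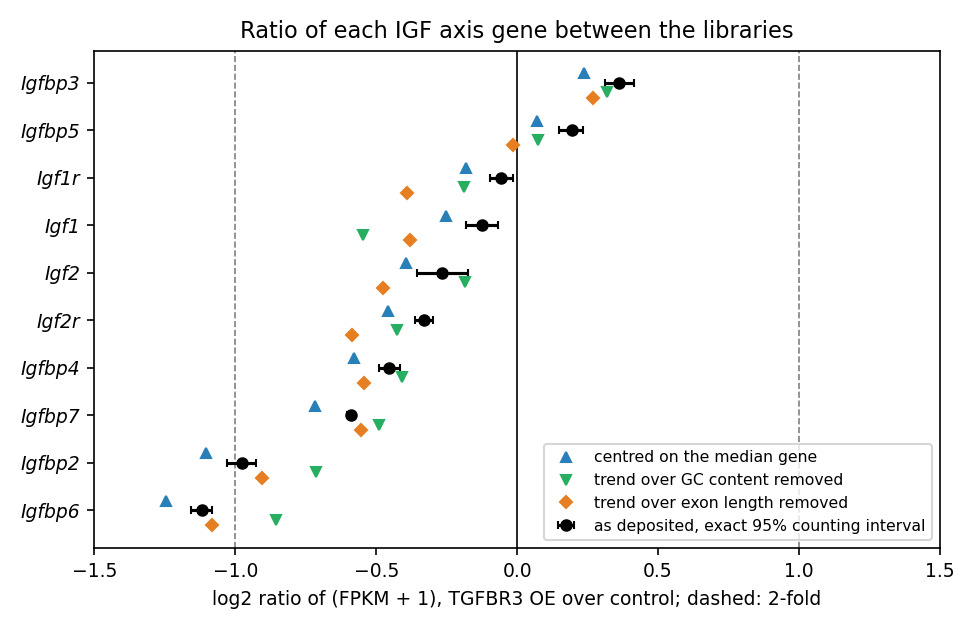
Log2 ratio of (FPKM + 1), library labelled TGFBR3 OE over library labelled control, for each IGF axis gene, with exact 95% counting intervals and the values after centring and after removal of the trends over GC content and exon length. Igfbp6 is past −1 as deposited (−1.12), when centred and with the length trend removed, but not with the GC trend removed (−0.86), and Igfbp3 is above 0 at each.

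Together the 6 binding proteins had a summed FPKM of 1065 in the library labelled TGFBR3 OE and 1664 in the library labelled control, a 1.56-fold lower sum. For Igfbp2 to Igfbp6, which bind IGFs with high affinity, the sums were 183 and 336, or 1.83-fold lower. The plot of the make-up shows how the sum was divided. Igfbp7 held 82.8% of it in the library labelled TGFBR3 OE and 79.8% in the library labelled control, and Igfbp6 held 9.14% and 12.8%. Without Igfbp7, the share of Igfbp6 was 53.1% against 63.3% and that of Igfbp2 was 18.0% against 19.7%. The shares of Igfbp3 and Igfbp4 were larger in the library labelled TGFBR3 OE, at 14.0% against 5.88% and at 14.7% against 11.1%. The trend over GC content was not removed from these sums and shares. Igfbp6 was the largest of these 5 by FPKM in both libraries. By counts, which grow with transcript length, Igfbp4 exceeded it in the library labelled TGFBR3 OE, at 8071 against 7338.

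**Figure D3:**
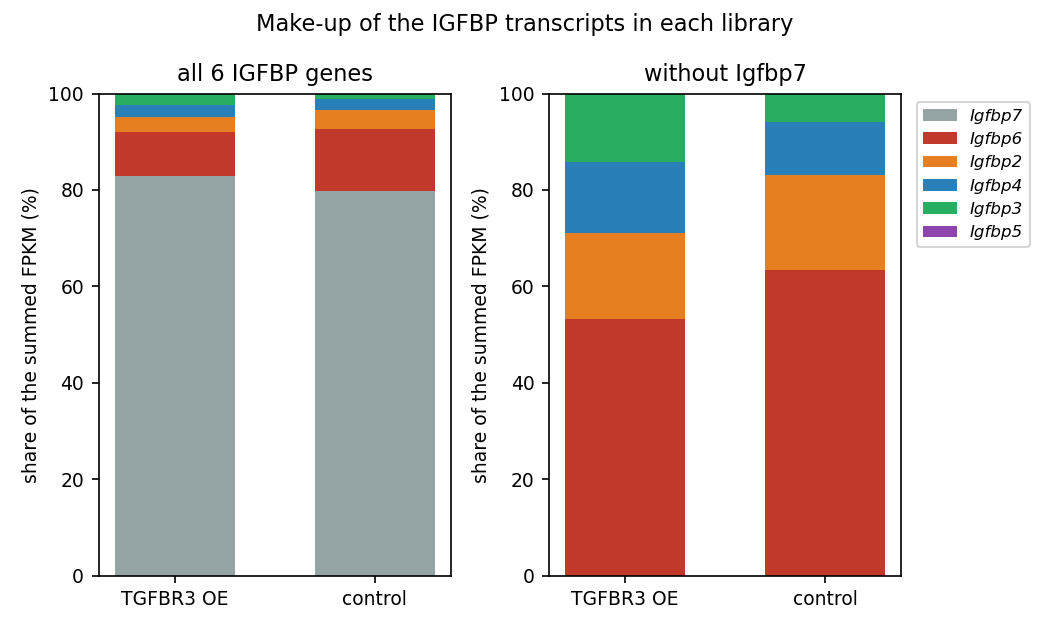
Share of the summed FPKM (%) held by each IGFBP gene in the library labelled TGFBR3 OE and in the library labelled control, for all 6 genes (left) and without Igfbp7 (right), 1 library each. Igfbp6 takes 53.1% and 63.3% of the right bars and Igfbp3 takes 14.0% and 5.88%.

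The ligands were low in both libraries. Igf1, on chromosome 10 from 87858265 to 87937042, stood at FPKM 3.75 and 4.18 from 2523 and 3830 counts. The log2 ratio was −0.13 (95% interval −0.18 to −0.07), and it was −0.55 after removal of the GC trend, since its transcript has the lowest GC content of the axis at 38.0%. Igf2, an imprinted gene expressed from the paternal copy, lies on chromosome 7 from 142650766 to 142666816 and was scarce, at FPKM 0.43 and 0.72. Its 169 and 381 counts gave a log2 ratio of −0.27 (95% interval −0.35 to −0.17) and a CPM ratio of 0.596 (95% interval 0.495 to 0.717). The annotated gene Gm49394, on the same strand, covers 62.8% of the exon length of Igf2, so reads could be shared between them in the counting. Igf1 exceeded Igf2 by 8.72-fold in the library labelled TGFBR3 OE and by 5.81-fold in the library labelled control. The antisense gene Igf1os, which shares no exonic base with Igf1, had 12 and 4 counts.

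Both receptors had ratios below 0 and under the threshold. Igf1r, on chromosome 7 from 67952827 to 68233668, stood at FPKM 5.34 and 5.59 from 6084 and 8675 counts, and its log2 ratio was −0.06 (95% interval −0.10 to −0.02), or −0.39 after removal of the length trend. Igf2r, on chromosome 17 from 12682406 to 12769664, stood at FPKM 15.9 and 20.3 from 10041 and 17412 counts, and its log2 ratio was −0.33 (95% interval −0.36 to −0.30), or −0.59 after removal of the length trend. Igf2r stood at 2.98 FPKM per Igf1r FPKM in the library labelled TGFBR3 OE and at 3.62 in the other. Airn, the noncoding RNA known to silence the paternal Igf2r, had 113 and 111 unscaled counts, at FPKM 0.35 and 0.25, and shares no exonic base with it. In order of FPKM, the library labelled control ran Igfbp7, Igfbp6, Igfbp2, Igfbp4, Igf2r, Igfbp3, Igf1r, Igf1, Igf2 and Igfbp5. The counting intervals of neighbors in this order did not overlap, except for Igf2r and Igfbp3. In the library labelled TGFBR3 OE, Igfbp3 stood above Igf2r, and the intervals of Igfbp3 and Igfbp4 overlapped.

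**Figure D4:**
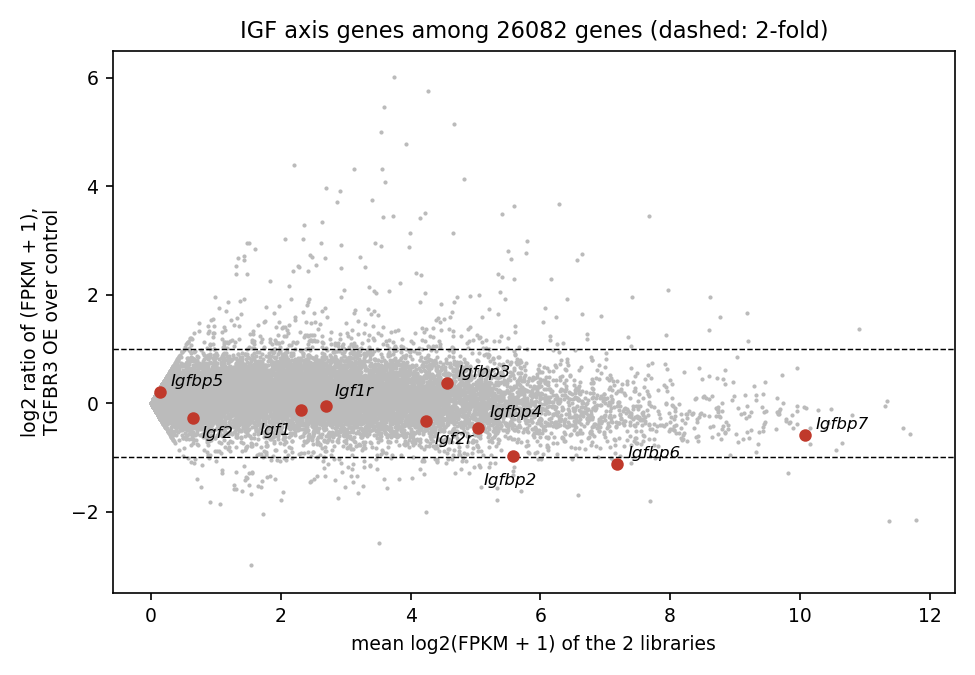
Log2 ratio of (FPKM + 1), library labelled TGFBR3 OE over library labelled control, against the mean log2(FPKM + 1) for all 26082 genes (gray) and the 10 IGF axis genes (red), with 2-fold as dashed lines. Igfbp6 (−1.12) lies below the lower line, Igfbp2 (−0.98) next to it, and the remaining 8 between the lines.

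The genes nearest to Igfbp6 in level were sought by the Euclidean distance of log2(FPKM + 1) over both libraries. They were Col3a1, a fibrillar collagen (FPKM 95.8 and 199, distance 0.09), Serpina3n, a protease inhibitor (106 and 211), the predicted gene Gm8226 (95.5 and 193), Rpl7a-ps11, named as a pseudogene of a ribosomal protein gene (102 and 194), and Tagln, an actin-binding protein (107 and 184). Over 2 libraries many genes share such a pair of values. Col3a1 and Col1a1 (FPKM 467 and 870) were also on the list of FAP markers, of which 6 of 8 had a mean FPKM of 1 or more. Of these 6, 4 had a ratio below 0, against 36.7% of all genes at that level. The 4 adipocyte markers analysed summed to FPKM values of 19.9 and 30.2, with Adipoq at 534 and 1660 counts (log2 ratio −1.07), and none of the 4 was at 0. Their part in the values of the binding proteins was not tested.

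Other genes of the pathway were taken from 6 lists. Over all genes, 0.475% were 2-fold lower and 1.41% 2-fold higher, so a short list with none called is not set apart from other genes. Of the genes outside the 10, H19, the noncoding RNA next to Igf2, stood at FPKM 1.34 and 3.67, with a log2 ratio of −0.997 that was just short of the threshold. It was past 2-fold without the added 1 (−1.45), when centred (−1.12) and after removal of the length trend (−1.01), but not of the GC trend (−0.95). Igf2bp2 and Igf2bp3, which bind Igf2 mRNA, had log2 ratios of 0.51 and 0.30. None of the 9 genes of this list was called, and the 4 with a mean FPKM of 1 or more had a median of 0.29, which was 0.16 when centred, 0.005 after removal of the GC trend and −0.016 after removal of the length trend. Igfals, which carries IGF complexes in serum, had 0 and 11 counts, and Igfbp1 was not analysed here.

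Of the 23 proteases that cut binding proteins and their inhibitors, none was 2-fold higher or lower. The 20 with a mean FPKM of 1 or more had a median log2 ratio of −0.06, or −0.19 when centred and −0.17 after removal of the GC trend. The largest differences were in Pappa, which encodes PAPP-A (FPKM 4.69 and 2.08, log2 ratio 0.89), in Stc1, which encodes an inhibitor of PAPP-A (2.25 and 0.96, 0.73), and in the serine protease gene Htra3 (4.12 and 7.39, −0.71). Without the added 1, Pappa and Stc1 were past 2-fold, at 1.17 and 1.23. After removal of the GC trend, Pappa was at 0.60 and Stc1 at 0.35.

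Of 17 genes listed as surface partners of IGFBPs and of IGF2, none was called. The median of the 11 with a mean FPKM of 1 or more was 0.01, or −0.11 when centred. Lrp1, which encodes a receptor reported to bind IGFBP3, stood at FPKM 102 and 166 (log2 ratio −0.70, and −1.03 after removal of the length trend). M6pr, at 33.3 and 24.3 (0.44), was on this list too. It encodes the cation-dependent mannose 6-phosphate receptor and not IGF2R, the cation-independent one that takes up IGF2. Itgb3 stood at 0.85 and 1.64 (−0.51). Growth hormone drives Igf1 through its receptor, JAK2 and STAT5. None of the 11 genes of that route was called, and the median of the 10 with a mean FPKM of 1 or more was 0.10, or −0.02 when centred. The largest values were in Jak2 (8.35 and 4.43, 0.78), Socs1 (2.56 and 2.01, 0.24) and Stat3 (27.9 and 24.4, 0.19). After removal of the GC trend, Jak2 was at 0.42, Socs1 at 0.34 and Stat3 at 0.14.

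Of 36 genes of insulin and IGF receptor signaling, none was called. At a mean FPKM of 1 or more, 24 of 34 had a ratio above 0, against 63.1% of all genes at that level, and the median was 0.29. It was 0.16 when centred and 0.09 after removal of the GC trend. Sos1, which activates RAS, stood at 2.36 and 1.25 (0.58), and at 0.15 after removal of the GC trend. Among 9 genes of the CCN family and of other proteins with an IGFBP-like domain, 1 was called, and it was lower, as 0.475% of all genes were. Kazald1, also known as an IGFBP-related protein, stood at FPKM 3.35 and 10.6 from 384 and 1644 counts, with a log2 ratio of −1.41 (95% interval −1.54 to −1.28), and it was −1.15 after removal of the GC trend. Ccn2, the abundant connective tissue growth factor, was at 672 and 935 (−0.48), and Ccn3 at 3.24 and 5.70 (−0.66). Of the 7 genes of this list with a mean FPKM of 1 or more, 5 had a ratio below 0, against 36.7% of all genes at that level. The 2 above 0 were Ccn4 (17.9 and 12.9, 0.44) and Crim1 (14.0 and 11.3, 0.28). The median was −0.29, or −0.42 when centred and −0.34 after removal of the GC trend. The plot of the pathway lists sets these ratios beside those of the binding proteins.

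**Figure D5:**
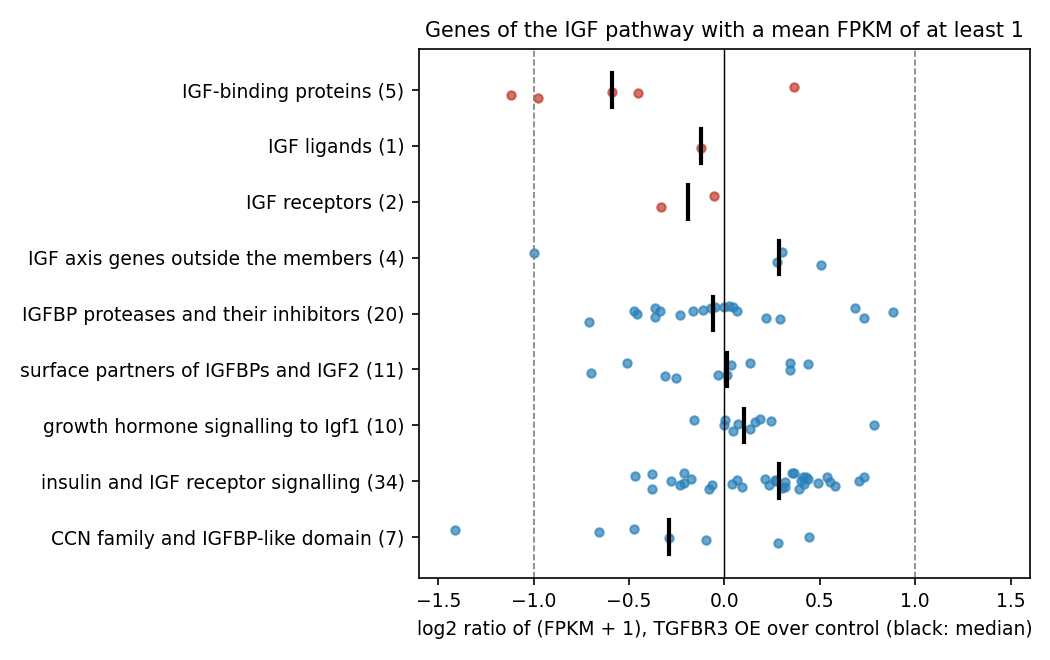
Log2 ratio of (FPKM + 1), library labelled TGFBR3 OE over library labelled control, of each gene whose mean FPKM reached 1, by list (number of genes in brackets, black bars for medians, dashed lines for 2-fold). The binding proteins have a median of −0.59, and 2 genes are past −1, Igfbp6 and Kazald1.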

How the data were processed

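Poly(A) RNA of both cultures was sequenced with paired reads of 150 nt from libraries with a dUTP-marked second strand, per the labels. The authors deposited a raw count and an FPKM value, rounded to 2 decimals, for 26082 genes in each library. The submitters' processing notes name cutadapt 1.9, HISAT2 2.2.1, StringTie 2.1.6, DESeq2, edgeR and mm10, whereas the paper's methods name STAR and FeatureCounts, and which of these made the deposited counts, and whether strand was used, is not given in the sources used here. FPKM implied library totals of 67858484 and 92412964, above the summed counts. Samples were grouped by title, with 1 library each, so no count model was run. Libraries were compared by the log2 ratio of (FPKM + 1), with exact Clopper-Pearson intervals at the 95% level for the share of a gene's counts, computed with Python 3.11.15, NumPy 2.4.6, pandas 2.3.3 and SciPy 1.17.1. Whether or not molecular identifiers were used, such intervals cover counting error only. Depth sets their width, which is wide for Igfbp5 and Igf2. Positions, exon lengths and GC content of the longest transcript came from GENCODE M21 on mm10, which lacks 70 of the gene identifiers. The intervals and the 2-fold calls were tested on simulated Poisson counts scaled to library totals, without an added 1. The intervals of (FPKM + 1), the removal of trends, the shares and the sums were not simulated. The members, lists and tests were chosen with earlier results of these data known. Named genes are the 10 members, Tgfbr3, up to 3 genes of each list by the size of the ratio at a mean FPKM of 1 or more, the 5 genes nearest to Igfbp6 and its neighbors. Some genes that this rule names are not reported here. Other genes, such as Igfbp1, Igfals, Airn, Ghr, Stat5a, Stat5b, Ccn4, Crim1 and single markers, were named after their values were seen. The alternatives tried were other pseudocounts, centring, a common sum without the 50 highest genes, CPM, removal of trends over GC content and length in 20 bins, a filter on FPKM and other fold thresholds. CPM without a pseudocount was added after seeing the data.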

Additional observations from a re-analysis of the deposited data

How the results depend on the processing

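Igfbp6 was −1.25 when centred, −0.86 with the GC trend removed and −1.08 with the length trend removed. Igfbp5 turned to −0.014 with the length trend removed, and each of the other 9 genes kept its sign in all 7 alternatives listed for single genes. With Igfbp2, 2 of the 10 genes were 2-fold lower when centred and 2 by CPM, and 0 were with the GC trend removed. Igfbp5 was the 1 gene 2-fold higher with a pseudocount of 0.1, the 1 with 0.01 and the 1 with none. Over all genes, against 369 higher and 124 lower, the counts were 2061 and 798 (pseudocount 0.1), 4933 and 2750 (0.01), 638 and 197 (CPM), 1685 and 608 (1.5-fold) and 77 and 6 (4-fold), with 237 higher after removal of the GC trend and 275 higher and 195 lower when centred. In the pathway lists, 3 genes were higher with a pseudocount of 0.1 and 3 by CPM (Pappa, Stc1 and Rictor), and 7 with 0.01. Lower were 3 with 0.1 (Kazald1, H19 and Mmp9), 4 with 0.01, 2 when centred, 2 with a common sum, 2 by CPM, and 3 with the length trend removed (Kazald1, H19 and Lrp1). By counts the share of Igfbp6 was 7.54% and 10.8% and that of Igfbp7 74.3% and 73.3%. By FPKM without Igfbp7, the share of Igfbp6 was 53.1% and 63.3%. Depth limits Igfbp5 (17 counts in the library labelled control) and Igf2. No paired analysis was possible because each group has 1 library, which also leaves no replicate to leave out.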
